A study of Triticum aestivum and Aegilops tauschii and Triticum carthlicum with 33 samples.

Results

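PEAMT1 (LOC543067), SAHH and COMT1 (LOC543449) are 3 enzymes of methyl transfer, taken as all probe sets that the platform annotation assigned to these gene symbols. They were 3 of the 771 annotated genes on the Affymetrix wheat GeneChip and were read from 4 probe sets, 1 for PEAMT1, 2 for SAHH and 1 for COMT1. A probe set is a group of short oligonucleotides on the array whose signals are summarised as 1 value. PEAMT1 was read from Ta.1842.1.S1_a_at, SAHH from Ta.1258.1.S1_a_at with Ta.1258.2.S1_x_at as its second probe set, and COMT1 from Ta.336.1.S1_x_at. By the array maker's naming, the a type matches several transcripts of the same gene, and the x type holds probes shared with unlike transcripts. The second SAHH probe set and the only COMT1 probe set are of the x type, so their values can include other transcripts. Copies of a gene on the A, B and D genomes can also share probes, and a lower value of a line cannot be told apart from a sequence difference under the probes.

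S-adenosylmethionine is the methyl donor of most cellular methylation reactions, and each transfer of its methyl group leaves S-adenosylhomocysteine, which inhibits methyltransferases. SAHH, S-adenosylhomocysteine hydrolase, cleaves this product to adenosine and homocysteine, from which methionine and the donor are made again. PEAMT1, phosphoethanolamine N-methyltransferase, adds methyl groups to phosphoethanolamine on the way to phosphocholine, the source of the membrane lipid phosphatidylcholine. COMT1, caffeic acid O-methyltransferase, methylates lignin precursors, mainly on the route to syringyl units. PEAMT1 and COMT1 thus use the methyl donor, and SAHH clears the product that their reactions leave.

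Leaf RNA of 11 groups was measured, with 3 arrays per group labelled as biological replicates. The natural tetraploids, with BBAA genomes, were TTR13 (T. turgidum ssp. durum), TD265 (ssp. dicoccoides, wild emmer) and Blackbird (ssp. carthlicum), and the diploids were TQ18 and 30A, both lines of Aegilops tauschii, the species that gave wheat its D genome. The bread wheat was TAA10 (T. aestivum, BBAADD), and Extracted-tetra was a tetraploid whose BBAA genomes are those of common wheat, obtained by hybridisation to durum wheat and repeated backcrossing to the hexaploid. XX329 was a hexaploid resynthesized with Extracted-tetra as its maternal parent and Allo-960S7 a newly synthesized hexaploid in selfed generation 7. XX329 mix held RNA of Extracted-tetra and TQ18, and Allo-960 mix that of Blackbird and 30A, in each case 2 parts tetraploid to 1 part diploid, as a measure of additive expression; the lines in a mix are taken here as the parents of its hexaploid. All plants came from growth chambers with days of 16 h at 24 °C and nights at 20 °C. Each group is a single line, so a difference between groups belongs to those lines, and nothing in the labels says whether replicates were separate plants or pools.

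Replicate arrays agreed closely (r over all probe sets 0.979 to 0.996 within groups), and the median value of an array was 4.37 to 4.48 log2 units. The leaf label was met: the group means of PsbO and PsbP, proteins of the oxygen-evolving complex, ran from 14.3 to 14.4 log2 units, and those of rbcl, the large subunit of Rubisco, from 7.69 to 10.01. The group means of 6 seed storage protein genes lay between 2.51 and 5.20. The hybridisation controls, transcripts added at a fixed amount, averaged 9.12 to 9.54 log2 units on the 12 arrays of Allo-960S7, its mix and the lines Blackbird and 30A and 9.69 to 10.3 on the other 21. Comparisons of a line of the 12 with a line of the 21 therefore also compare these sets of arrays, and set and line cannot be told apart. In whole leaf RNA, fewer cells of a type and less RNA per cell cannot be told apart either.

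**Figure D1:**
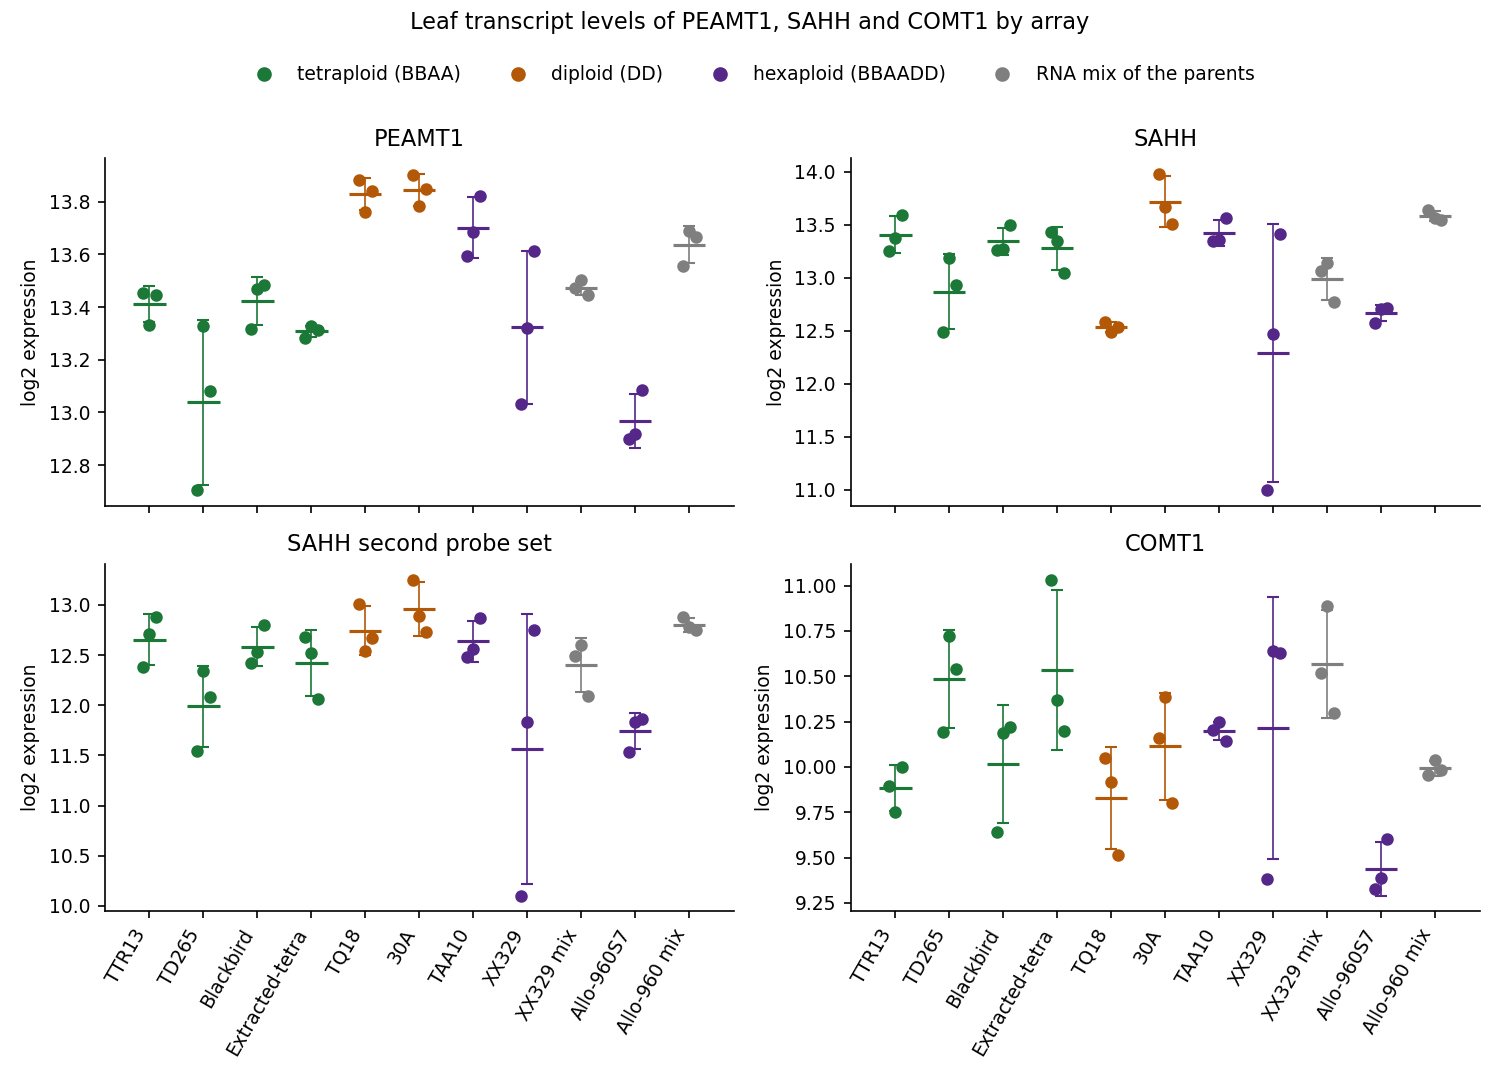
Log2 expression of the 4 probe sets by array (points) and group (horizontal line, mean; bars, SD; n = 3), with tetraploids in green, diploids in brown, hexaploids in purple and RNA mixes in grey; each panel has its own axis. PEAMT1 was highest in 30A and TQ18 and lowest in Allo-960S7, COMT1 was lowest in Allo-960S7, and SAHH ranged from 10.997 to 13.41 within XX329.

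PEAMT1 was the most evenly measured of the genes, and its group means ran from 12.97 in Allo-960S7 to 13.84 in 30A. On the 3 arrays of 30A it was 13.90, 13.78 and 13.85, and on those of TQ18 13.88, 13.76 and 13.84. The natural tetraploids gave 13.45, 13.33 and 13.45 in TTR13, 13.32, 13.47 and 13.48 in Blackbird and 12.71, 13.33 and 13.08 in TD265. All 6 arrays of Aegilops tauschii thus lay above all 9 arrays of the natural tetraploids. The difference between the means of these lines was 0.55 ± 0.08 log2 units (SE; 1.46-fold; limma, adjusted p = 9e-07), where the error comes from arrays within lines and not from the spread between lines. In this comparison 51.6% of the 61179 probe sets were called at an adjusted p under 0.05 and 30.3% were called higher, and PEAMT1 alone of the 3 genes was called. Its call and direction held in all 30 alternatives of this comparison, with differences from 0.42 to 0.61.

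In TAA10, PEAMT1 was 13.59, 13.69 and 13.82, and in Extracted-tetra 13.28, 13.33 and 13.31. The arrays of TAA10 lay above those of Extracted-tetra, whose level fell within the range of the natural tetraploids. Extracted-tetra was lower than TAA10 by 0.39 ± 0.12 (SE; limma, adjusted p = 0.025), in a comparison where 18.3% of all probe sets were called and 7.04% were called lower. This call was close to the threshold: it ended when any of 5 of the 6 arrays was left out (all but TAA10 replicate 1; adjusted p from 0.0557 to 0.115). It also ended with the actin difference as a covariate (difference −0.30, adjusted p = 0.372) and after centring on the hybridisation controls (−0.40, adjusted p = 0.177). The actin difference is that of the 3′ and 5′ actin controls, which can reflect RNA integrity. It was 0.34 ± 0.25 in Extracted-tetra and −0.46 ± 0.19 in TAA10 (SD, n = 3 each), and its part in the result was not tested apart from that covariate. The same difference of the ef1a controls overlapped between these groups (0.23, 0.58 and 0.17 against 0.64, 0.29 and 0.50). So did that of the gapdh controls (−2.16, −2.95 and −2.23 against −2.53, −2.58 and −2.68). Neither was used as a covariate. Against the mean of the natural tetraploids, Extracted-tetra differed in PEAMT1 by 0.02 (95% interval −0.19 to 0.23; limma, adjusted p = 0.931), and none of the 4 probe sets was called there, in a comparison that called 24.4% of all probe sets. With the actin covariate COMT1 was called there (difference 0.96, limma, adjusted p = 0.0454).

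Within the natural tetraploids, TD265 had the lowest PEAMT1. TTR13 exceeded it by 0.37 ± 0.12 (SE; limma, adjusted p = 0.0304; 22.3% of all probe sets called, 11.6% higher). TD265 lay below Blackbird by 0.38 ± 0.12 (SE; limma, adjusted p = 0.0261; 20.1% called, 10.5% lower), though here the arrays overlapped. Both calls rested on TD265 replicate 1, the lowest PEAMT1 array of the series at 12.71: without it the differences were 0.21 (limma, adjusted p = 0.292) and −0.22 (adjusted p = 0.289). The first call also ended without TD265 replicate 3 or TTR13 replicate 1 or 3 (adjusted p from 0.0541 to 0.0874), and the second without Blackbird replicate 2 or 3 (adjusted p 0.0849 and 0.0937). TTR13 and Blackbird differed by −0.01 in PEAMT1 (95% interval −0.27 to 0.24), and none of the 4 probe sets was called between them, where 16.3% of all probe sets were.

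In the order of PEAMT1 group means (30A, TQ18, TAA10, Allo-960 mix, XX329 mix, Blackbird, TTR13, XX329, Extracted-tetra, TD265, Allo-960S7), 9 of the 10 neighbouring pairs overlapped, and only the mixes were apart, by 0.16. For COMT1 and for each SAHH probe set all 10 neighbouring pairs overlapped, so the order of neighbours is not resolved by 3 arrays each.

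SAHH was 13.98, 13.66 and 13.51 on the arrays of 30A and 12.58, 12.48 and 12.53 on those of TQ18, so the lines of Aegilops tauschii did not overlap. TQ18 minus 30A was −1.18 ± 0.30 (SE; 2.27-fold; limma, adjusted p = 0.00553), in a comparison that called 18.5% of all probe sets and 9.47% lower. The second SAHH probe set did not show this: it was 13.01, 12.54 and 12.67 in TQ18 and 13.25, 12.89 and 12.73 in 30A, which overlap, and differed by −0.22 (95% interval −0.92 to 0.49; limma, adjusted p = 0.721). The replicate numbers of TQ18 and 30A met the rule for pairing, and the SAHH call held with the replicate as a block. With the actin covariate the difference was −0.79 (adjusted p = 0.275), and the actin difference itself was −0.68 ± 0.15 in TQ18 and −1.50 ± 0.17 in 30A (SD, n = 3 each). The ef1a difference overlapped between these lines (0.71, 0.78 and 0.46 in TQ18, 0.94, 0.95 and 0.24 in 30A). That of gapdh was lower in TQ18 (−2.97, −3.21 and −2.46) than in 30A (−2.35, −2.31 and −2.34). PEAMT1 and COMT1 were not called between the lines (differences −0.02 and −0.29). After centring on the hybridisation controls, which put the median of all probe sets at −0.75, PEAMT1 (−0.76, limma, adjusted p = 0.00035), the second SAHH probe set (−0.96, adjusted p = 0.0127) and COMT1 (−1.03, adjusted p = 0.00142) were called.

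The same disagreement stood between TQ18 and Extracted-tetra, whose arrays are in the same set. SAHH was 13.43, 13.35 and 13.05 in Extracted-tetra, above all arrays of TQ18, by 0.74 ± 0.30 (SE; limma, adjusted p = 0.0436), while the second probe set was lower by 0.32 (95% interval −1.03 to 0.39; adjusted p = 0.483) with overlapping arrays. The SAHH call here ended when any of 5 of the 6 arrays was left out (all but Extracted-tetra replicate 3; adjusted p from 0.0694 to 0.120).

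The log2 difference of the first minus the second SAHH probe set puts this on 1 scale. It was −0.43, −0.05 and −0.14 on the arrays of TQ18 and lay between 0.54 and 1.04 on all other 30 arrays. In 30A it was 0.76 ± 0.03 (SD, n = 3), 0.97 above the mean of TQ18. The exact permutation test of 3 arrays against 3 gave a 2-sided p of 0.1, the smallest that 20 permutations allow. Any groups of 3 arrays without overlap give this p, so the test adds nothing to the listed values. In XX329 mix, which holds TQ18 RNA, the difference was 0.59 ± 0.07, and in XX329 it was 0.73 ± 0.14 (SD, n = 3 each). Whether TQ18 is called low in SAHH thus depends on which probe set is read.

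**Figure D2:**
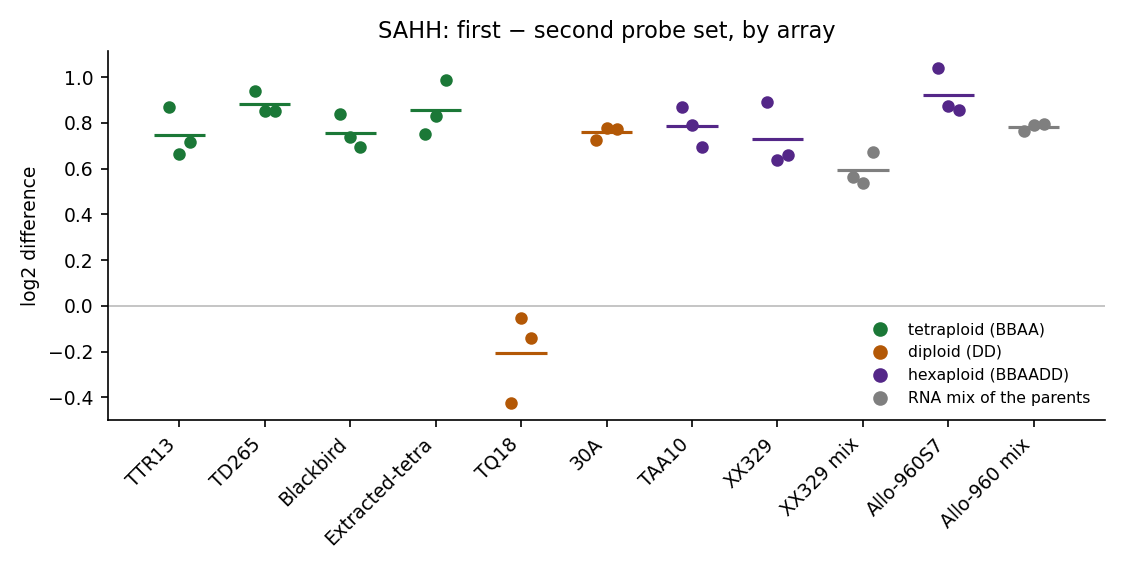
Log2 difference of the first minus the second SAHH probe set on each array (points; horizontal line, group mean; n = 3). The 3 arrays of TQ18 lay between −0.43 and −0.05, and the other 30 between 0.54 and 1.04.

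Allo-960S7 had low values for all 3 genes. Its 3 arrays lay below every array of Blackbird, 30A and Allo-960 mix on all 4 probe sets, and these groups all belong to the same 12 arrays. PEAMT1 was 12.90, 12.92 and 13.09 in Allo-960S7 and 13.56, 13.69 and 13.67 in Allo-960 mix. SAHH was 12.58, 12.70 and 12.72 against 13.64, 13.56 and 13.54. COMT1 was 9.32, 9.38 and 9.60 against 9.96, 10.04 and 9.98.

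Against its mix, Allo-960S7 was lower in PEAMT1 by 0.67 ± 0.12 log2 units (SE; 1.59-fold; limma, adjusted p = 0.000474), and 1 of the 4 probe sets was called, in a comparison that called 8.54% of all probe sets and 5.25% lower. The call and direction of PEAMT1 held in all 16 alternatives. The differences of SAHH (−0.92 ± 0.30, adjusted p = 0.0542), its second probe set (−1.06 ± 0.35, adjusted p = 0.0548) and COMT1 (−0.55 ± 0.25, adjusted p = 0.193) did not pass the test with limma. The fit shares 1 error per probe set over all groups, and XX329 alone brought an SD of 1.22 to SAHH, against 0.05 to 0.36 in the other 10 groups. In a fit without the XX329 arrays, an alternative added after the data had been seen, SAHH (limma, adjusted p = 7.74e-05) and its second probe set (0.000374) were called, and so they were in a fit limited to Allo-960S7 and its mix (0.000475 and 0.000538), which also called COMT1 (0.0108). SAHH and its second probe set were called in 6 of the 16 alternatives each, and the difference of SAHH ran from −1.01 to −0.82.

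Beside each parent the picture was similar, in comparisons that were added after the data had been seen and share the Allo-960S7 arrays with the one above. Below 30A, all 4 probe sets were called (limma), by 0.88 ± 0.12 in PEAMT1 (SE; adjusted p = 1.07e-06), 1.05 ± 0.30 in SAHH (adjusted p = 0.00616), 1.21 ± 0.35 in its second probe set (adjusted p = 0.00608) and 0.68 ± 0.25 in COMT1 (adjusted p = 0.0319). In that comparison 34.5% of all probe sets were called, 22.2% lower, and the median of all was −0.13. The COMT1 call ended without 30A replicate 1 or 2 or Allo-960S7 replicate 1 or 2 (adjusted p from 0.0769 to 0.147). It also ended after centring on the hybridisation controls (−0.60, adjusted p = 0.137), after quantile normalization (−0.59, adjusted p = 0.0658) and with the actin covariate (−0.50, adjusted p = 0.113), whereas the calls of the other probe sets held in all 15 alternatives. Below Blackbird, PEAMT1 was called (difference −0.45 ± 0.12; limma, adjusted p = 0.00803; 19.2% of all probe sets called, 11.1% lower). SAHH (−0.68, adjusted p = 0.131), its second probe set (−0.84, adjusted p = 0.0961) and COMT1 (−0.58, adjusted p = 0.11) did not pass, though COMT1 did without Blackbird replicate 1 (adjusted p = 0.0496). Without the XX329 arrays all of them were called (limma, adjusted p = 0.00096, 0.00164 and 0.0339). So they were in a fit limited to Allo-960S7 and Blackbird (limma, adjusted p = 0.000723, 0.000829 and 0.0215). Each SAHH probe set was called in 3 of the 15 alternatives and COMT1 in 5.

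Between the parents themselves, Blackbird was lower than 30A in PEAMT1 by 0.42 ± 0.12 (SE; limma, adjusted p = 0.00708), where 38.6% of all probe sets were called and 22.2% lower, and SAHH and COMT1 were not called. The PEAMT1 call ended after centring on the hybridisation controls (−0.28, adjusted p = 0.295) and with the actin covariate (−0.36, adjusted p = 0.0767). The physical mix lay within 0.10 log2 units of a mix calculated from the parents' arrays for all 4 probe sets. Allo-960S7 was below the calculated mix by 0.61 in PEAMT1, and its differences from it were −0.82 in SAHH, −0.99 in the second SAHH probe set and −0.62 in COMT1. The actin difference was −1.24 ± 0.10 in Allo-960S7 and −1.04 ± 0.07 in its mix (SD, n = 3 each), and with it as a covariate PEAMT1 kept its call.

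**Figure D3:**
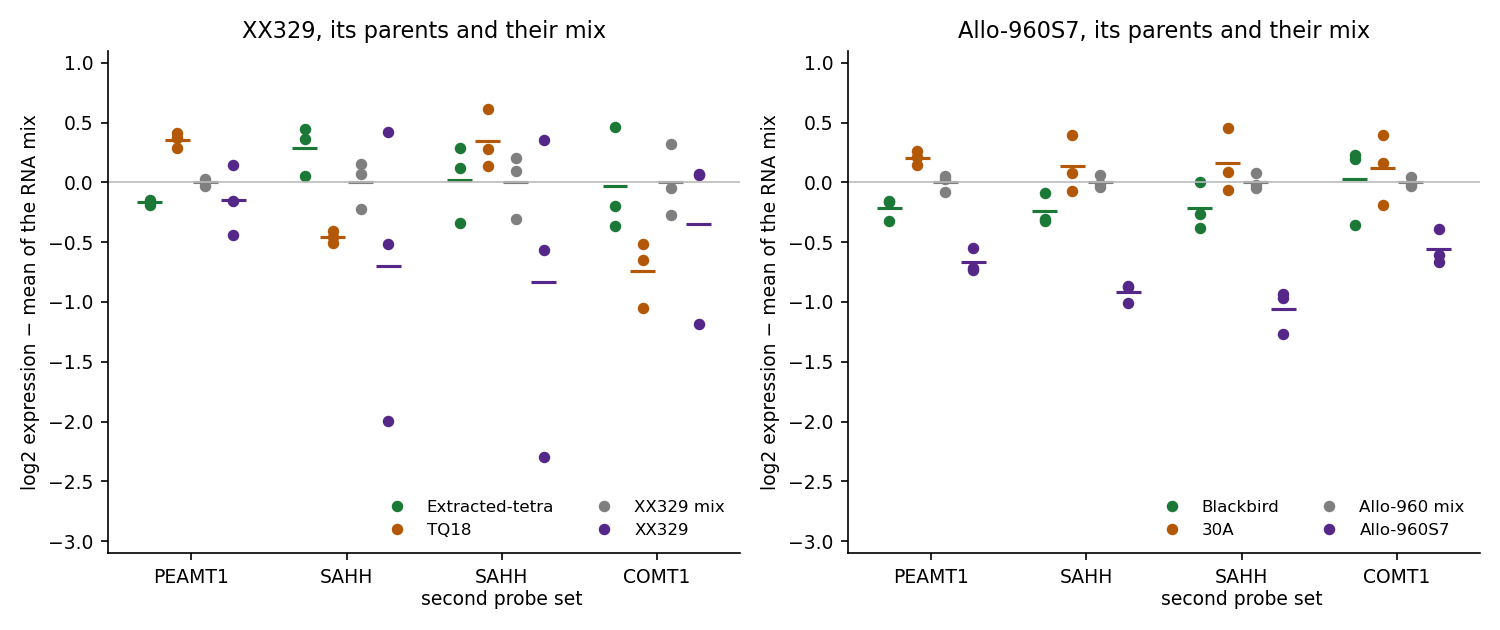
Log2 expression of each array minus the mean of the parents' RNA mix, for XX329 (left) and Allo-960S7 (right) with their parents (points, arrays; horizontal lines, means; n = 3 per group). All 3 Allo-960S7 arrays lay below all arrays of Blackbird, 30A and the mix on every probe set, whereas the XX329 arrays were spread widely for SAHH and COMT1.

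Allo-960S7 was also below TAA10 in PEAMT1 by 0.73 ± 0.12 (SE; limma, adjusted p = 4.96e-05) and in COMT1 by 0.76 ± 0.25 (adjusted p = 0.0247), in a comparison that called 22% of all probe sets and 11.5% lower. The arrays of TAA10 gave 10.20, 10.25 and 10.14 for COMT1, all above those of Allo-960S7. SAHH did not pass (−0.75, adjusted p = 0.0717), nor did its second probe set (−0.89, adjusted p = 0.0643), and both were called without the XX329 arrays (0.00031 and 0.00096). These groups come from different sets of arrays: after centring on the hybridisation controls the median of all probe sets was 0.49, and PEAMT1 and COMT1 differed by −0.26 and −0.29 (adjusted p 0.198 and 0.363). The COMT1 call ended without Allo-960S7 replicate 1 or 2 or TAA10 replicate 1 or 2 (adjusted p from 0.0589 to 0.0827).

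Against its mix, XX329 was called in none of the 4 probe sets (limma, adjusted p from 0.279 to 0.707), in a comparison that called 1.88% of all probe sets. Only the 2 probe sets of SAHH, which read 1 gene, had an unadjusted p under 0.05. The share of all probe sets at that level was not counted. The differences were −0.70 in SAHH (95% interval −1.31 to −0.08), −0.83 in its second probe set (−1.54 to −0.13), −0.35 in COMT1 (−0.85 to 0.15) and −0.15 in PEAMT1 (−0.41 to 0.11). Its arrays disagreed with each other. SAHH was 10.997, 12.47 and 13.41, its second probe set 10.10, 11.83 and 12.75, COMT1 9.38, 10.64 and 10.63, and PEAMT1 13.03, 13.32 and 13.61, so replicate 1 was the lowest each time. The arrays of XX329 mix gave 13.06, 13.14 and 12.77 for SAHH, which lie inside the range of XX329.

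The spread of SAHH in XX329 was unusual for these arrays. Its range of 2.41 log2 units was larger than that of 99.7% of all probe sets on the same 3 arrays, where the median range was 0.35. That of the second probe set (2.65) was larger than 99.8%, that of COMT1 (1.26) larger than 97.4% and that of PEAMT1 (0.58) larger than 78.9%. Replicate 1 lay below the lower of the other arrays by 1.47 in SAHH, a drop that 55 of the 61179 probe sets reached or passed, and by 1.25 in COMT1, reached or passed by 97. By the lowest correlation of an array with another of its group, XX329 replicates 1 and 3 were the lowest of the 33 arrays (r = 0.979) and replicate 2 stood at 0.986. Their hybridisation controls were 10.19, 10.09 and 10.01, their medians 4.38, 4.41 and 4.45 and their actin differences −0.21, −0.43 and −0.57 in the order of replicates 1, 2 and 3. The part of these measures in the spread was not tested.

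Without XX329 replicate 3, SAHH and its second probe set were called below the mix, with differences of −1.26 and −1.43 (limma, adjusted p 0.00226 and 0.00482); without replicate 1 the SAHH difference was −0.05. Against TAA10, in which SAHH was 13.34, 13.35 and 13.56, XX329 was lower by 1.13 ± 0.30 (SE; limma, adjusted p = 0.0392; 2.14% of all probe sets called, 1.33% lower), with overlapping arrays. That call depended on which arrays were used. Without XX329 replicate 1 the difference was −0.48 and was not called (limma, adjusted p = 0.327). The call also ended without XX329 replicate 2 or any array of TAA10 (adjusted p from 0.0622 to 0.122). It ended too in a fit limited to these groups, where the SE was 0.49 (limma, adjusted p = 0.619). PEAMT1 (−0.38, adjusted p = 0.137) and the second SAHH probe set (−1.07, adjusted p = 0.125) were not called, and were called without replicate 3 (0.0133 and 0.000644), with differences of −0.52 and −1.67.

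The departures of XX329 and Allo-960S7 from their mixes were compared directly. For PEAMT1 the departure of XX329 was higher by 0.52 ± 0.18 (SE; 95% interval 0.16 to 0.88; limma, adjusted p = 0.107), and none of the 4 probe sets was called (unadjusted p under 0.05 for PEAMT1), where 4.02% of all probe sets were. PEAMT1 was called without XX329 replicate 1 (0.66, adjusted p = 0.0191). For SAHH (0.22, 95% interval −0.65 to 1.09) and COMT1 (0.20, 95% interval −0.51 to 0.91), the intervals hold differences in either direction, so the data do not resolve whether the hexaploids differed in these genes.

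COMT1 had its highest group means in XX329 mix (10.57 ± 0.30), Extracted-tetra (10.53 ± 0.44) and TD265 (10.48 ± 0.27; SD, n = 3 each) and its lowest in Allo-960S7 (9.44 ± 0.15). The arrays of Extracted-tetra gave 11.03, 10.37 and 10.20 and those of TQ18 10.05, 9.92 and 9.51, which do not overlap. Extracted-tetra exceeded TQ18 by 0.70 ± 0.25 (SE; limma, adjusted p = 0.0197), and the call ended without Extracted-tetra replicate 1 (0.45, adjusted p = 0.165) or TQ18 replicate 3 (0.55, adjusted p = 0.109). PEAMT1 went the other way between these parents, with Extracted-tetra lower by 0.52 ± 0.12 (limma, adjusted p = 0.000907). That call ended after centring on the hybridisation controls (−0.18, adjusted p = 0.444) and with the actin covariate (−0.40, adjusted p = 0.14). With SAHH, 2 of the 4 probe sets were called higher and 1 lower, in a comparison that called 45.5% of all probe sets, 18.9% higher and 26.5% lower.

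COMT1 and the other genes also ran in opposite directions between TTR13 and TD265. COMT1 was 9.89, 9.75 and 10.002 in TTR13 and 10.19, 10.72 and 10.54 in TD265, without overlap, and the difference of −0.60 ± 0.25 did not pass the test (SE; limma, adjusted p = 0.0802). SAHH was 13.25, 13.37 and 13.59 in TTR13 and 12.49, 13.19 and 12.93 in TD265, also without overlap, with a difference of 0.53 ± 0.30 (adjusted p = 0.222). Without the XX329 arrays both were called (adjusted p 0.0244 and 0.00779).

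**Figure D4:**
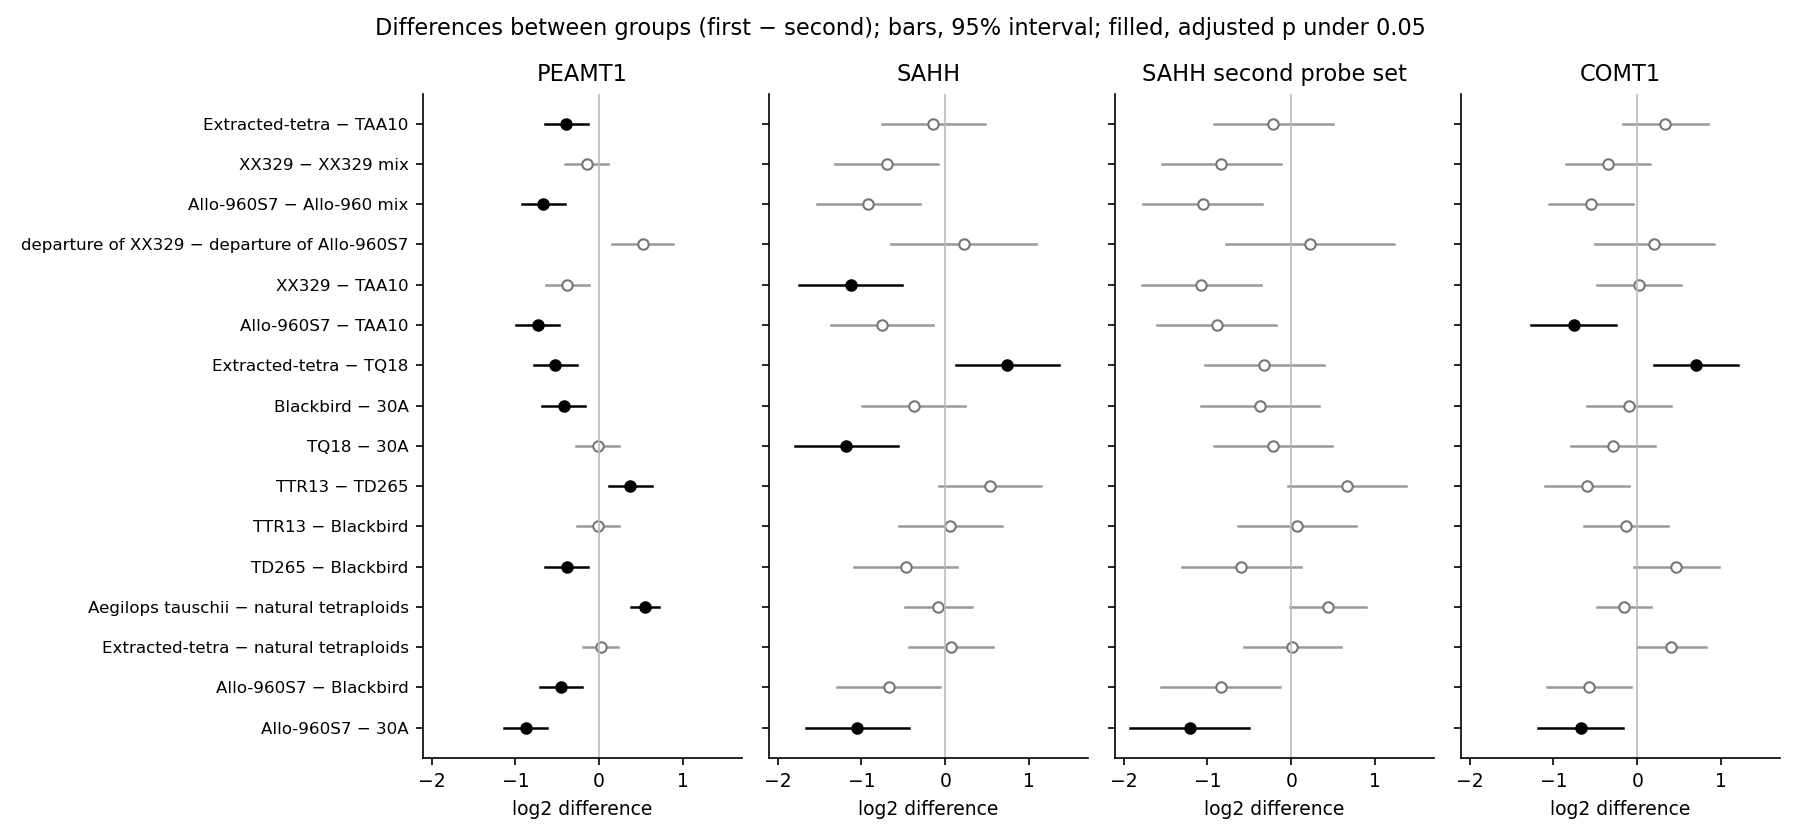
Log2 differences between groups, first minus second, for each probe set (points; bars, 95% interval; filled points, limma adjusted p under 0.05 over 61179 probe sets). PEAMT1 had the narrowest intervals and most of the filled points; all 4 probe sets were called only for Allo-960S7 against 30A.

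Within groups, the genes tended to rise and fall together from array to array. The same measure was not computed for other probe sets, so it is not known whether these genes stand out in it. Over the 33 arrays, each expressed as its deviation from its group mean, SAHH and PEAMT1 correlated with r = 0.77 and Spearman's rho = 0.59 (100000 permutations within groups, p = 0.00134 and 0.00266). The values for SAHH and COMT1 were r = 0.75 and rho = 0.64 (permutation p = 0.00068 and 0.00254), and for PEAMT1 and COMT1 r = 0.59 and rho = 0.47 (permutation p = 0.00992 and 0.0177). The SAHH probe sets tracked each other with r = 0.98 and rho = 0.96 (permutation p = 1e-05, the smallest that the permutations can give). Over these 4 relations the Benjamini-Hochberg adjusted p for r was 0.00179, 0.00136, 0.00992 and 4e-05, and for rho 0.00355, 0.00355, 0.0177 and 4e-05, in the same order.

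The widest deviations of SAHH were those of XX329 replicates 1 and 3, and r was lower without the XX329 arrays for each pair of genes; no p was computed for these subsets. Leaving out the 2 arrays farthest from the median, XX329 replicates 1 and 3, gave r = 0.65 for SAHH and PEAMT1 and 0.64 for SAHH and COMT1; for PEAMT1 and COMT1 the farthest were XX329 replicate 1 and TD265 replicate 1, and r was 0.41. Without all 3 XX329 arrays r was 0.67, 0.62 and 0.41. Within the 12 arrays of the Allo-960 set r was 0.37, 0.47 and 0.51, and within the other 21 it was 0.81, 0.80 and 0.60. Values of 1 array share its hybridisation and normalization, and mix arrays may share RNA with arrays of the parents; without the mixes r was 0.78, 0.75 and 0.60.

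**Figure D5:**
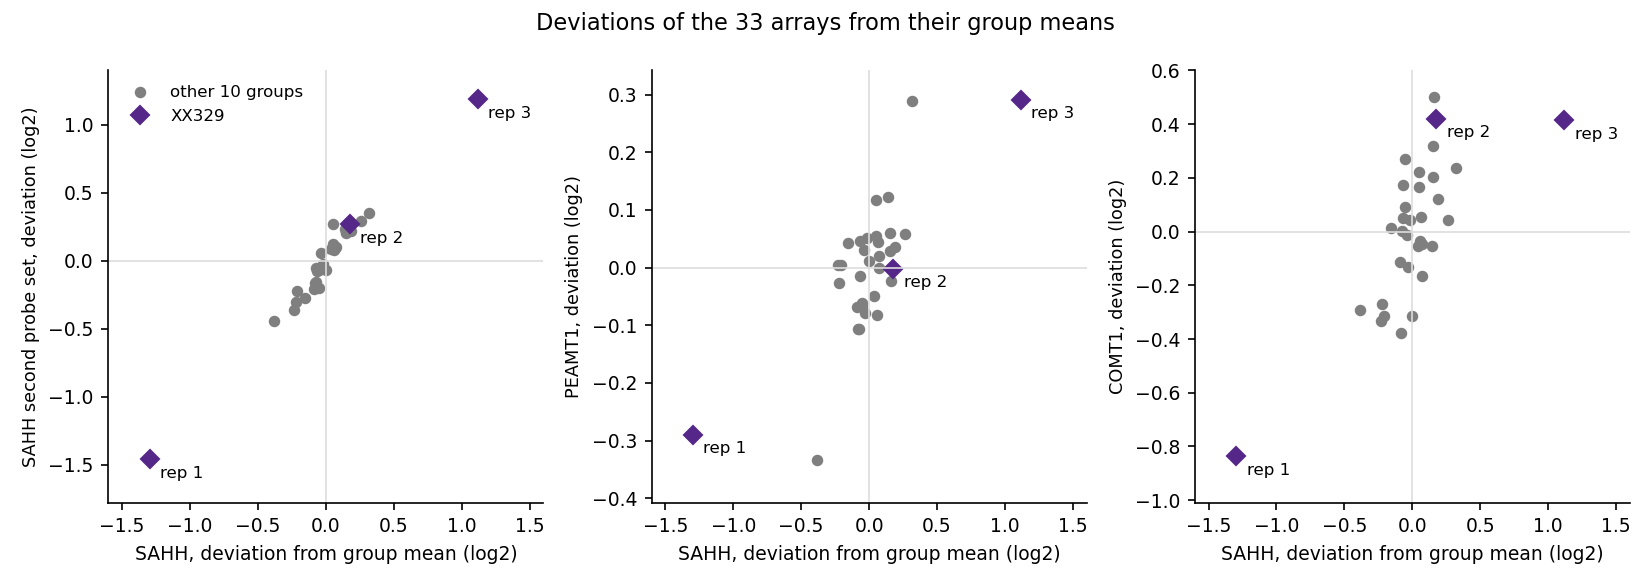
Deviation of each array from its group mean for the second SAHH probe set, PEAMT1 and COMT1 (vertical axes, log2 units) against that of SAHH (horizontal axes, log2 units); XX329 arrays are purple diamonds and the other 30 arrays grey points. The correlations over the 33 arrays are 0.98, 0.77 and 0.75 from left to right, with XX329 replicates 1 and 3 at the ends.

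Over the 11 group means, given as a description, the correlation was 0.42 for PEAMT1 and SAHH, 0.81 for PEAMT1 and the second SAHH probe set, 0.01 for PEAMT1 and COMT1 and 0.12 for SAHH and COMT1. Among 653 other annotated genes, read from 999 probe sets whose group means spanned at least 0.5 log2 units, the patterns most like PEAMT1 over the 11 groups were those of LOC543329 (r = 0.92), LOC606347 (0.84) and LOC606340 (0.84). Those most like SAHH were LOC543053 (0.77), LOC542943 (0.75) and LOC543372 (0.70), and those most like COMT1 were LOC542884 (0.87), LOC543141 (0.82) and LOC543171 (0.79).

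The annotation named few neighbours of these genes in their pathways: the lists for choline and betaine, the methyl cycle and lignin held PEAMT1, SAHH and COMT1 alone, and that for other users of S-adenosylmethionine held COMT1 and PIMT (LOC543193), the methyltransferase that repairs damaged aspartyl residues of proteins. PIMT was higher in Aegilops tauschii than in the natural tetraploids by 2.61 ± 0.14 (SE; limma, adjusted p = 9.42e-17) and lower in Extracted-tetra than in TAA10 by 1.67 ± 0.21 (adjusted p = 3.88e-07). Unlike PEAMT1, it was not called between Allo-960S7 and its mix (0.06 ± 0.21, adjusted p = 0.932), although the difference between the genes was not tested, and it did not pass between XX329 and its mix either (0.63 ± 0.21, adjusted p = 0.136).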

How the data were processed

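Leaf RNA on 33 arrays was summarised by the authors as log2 expression, 1 deposited value per probe set and array; per the submitters' processing notes, RMA and limma were used, with no versions given. Per the labels' protocols, 6 µg of total RNA went into each biotin-labelled cRNA. No further normalization was applied. Arrays have no read depth, and 3 per group limit the precision; p-values measure the spread between arrays labelled as biological replicates.

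The log2 values were modelled by group over all 11 groups with lmFit and eBayes of limma 3.58.1, run in R 4.3.3 (22 residual and 28.51 total degrees of freedom) to 61179 probe sets, after 111 control probe sets of 61290 were left out. P-values were adjusted by Benjamini-Hochberg over all of them within each of 14 comparisons and 2 added after the data had been seen, with adjusted p under 0.05 as the threshold for a call. The fit was also run on simulated data, with normal errors whose SD for a probe set was the same in all groups. That run does not cover groups of unequal spread, such as XX329 in SAHH.

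The members, lists and comparisons were chosen with earlier results of these data known. All probe sets of the 3 genes are given; each gene is read from its brightest probe set, avoiding the x type. The 3 genes matched RefSeq by Entrez gene ID. The rule for pairing replicate numbers was that every same-numbered correlation of deviations from group means exceed 0.1. It held for TQ18 and 30A alone (0.100 to 0.140, with the own number best in 3 of 3) of 26 pairs of groups. The main fit was unpaired for these lines too. Permutation tests used SciPy 1.17.1 and NumPy 2.4.6. Alternatives were median centring, centring on 27 hybridisation control probe sets, quantile normalization, the dimmest 33.3% left out, trend and robust eBayes, an actin covariate, a fit limited to the groups compared with and without the replicate block, each array or line left out, calculated mixes and, added later, a fit without XX329.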

Additional observations from a re-analysis of the deposited data

How the results depend on the processing

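Of 1080 alternative values of the 4 probe sets over 16 comparisons, 903 kept direction and side of the threshold, 55 lost a call, 68 gained one and 54 changed sign; no sign change involved a call under either setting. PEAMT1 kept its call in all alternatives against 30A, Blackbird and Allo-960 mix for Allo-960S7, and for Aegilops tauschii against the natural tetraploids. Causes were not tested. The limited fits change the number of arrays and the groups that share the error together, so these cannot be told apart. Precision is limited by 3 arrays a group.

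After centring on the hybridisation controls the counts of called probe sets became 7248 for Extracted-tetra minus TAA10, 586 for XX329 minus XX329 mix, 2795 for Allo-960S7 minus Allo-960 mix, 1197 for the difference of departures, 2359 for XX329 minus TAA10, 38668 for Allo-960S7 minus TAA10, 53249 for TQ18 minus 30A, 8837 for TTR13 minus TD265, 45916 for TTR13 minus Blackbird and 46502 for TD265 minus Blackbird, against 11206, 1152, 5227, 2461, 1311, 13440, 11298, 13626, 9942 and 12305. The share called higher moved by over 10 points for XX329 minus XX329 mix (49.9% to 21.3%), the difference of departures (57.7% to 27.9%), XX329 minus TAA10 (38.1% to 7.21%), Allo-960S7 minus TAA10 (47.5% to 95.2%), Extracted-tetra minus TQ18 (41.6% to 74.5%), Blackbird minus 30A (42.6% to 56.3%), TQ18 minus 30A (48.7% to 1.09%, and to 60.6% with median centring), TTR13 minus Blackbird (51.9% to 2.12%), TD265 minus Blackbird (47.7% to 3.04%), Aegilops tauschii minus natural tetraploids (58.7% to 42.7%), Extracted-tetra minus natural tetraploids (52.3% to 24.4%) and Allo-960S7 minus 30A (35.7% to 47.3%). The median of all probe sets then stood at −0.75 for TQ18 minus 30A, −0.57 for TTR13 minus Blackbird and −0.56 for TD265 minus Blackbird. Calls of PEAMT1 ended for Extracted-tetra minus TAA10 (−0.40), Allo-960S7 minus TAA10 (−0.26), Extracted-tetra minus TQ18 (−0.18), Blackbird minus 30A (−0.28) and TTR13 minus TD265 (0.38), and those of COMT1 for Allo-960S7 minus TAA10 (−0.29) and Allo-960S7 minus 30A (−0.60). Calls were gained by PEAMT1, the second SAHH probe set and COMT1 for TQ18 minus 30A (−0.76, −0.96 and −1.03), by PEAMT1 and COMT1 for TTR13 minus Blackbird (−0.60 and −0.72), by SAHH and its second probe set for TD265 minus Blackbird (−1.06 and −1.19) and by PEAMT1 and the second SAHH probe set for XX329 minus TAA10 (−0.65 and −1.34). Signs changed for COMT1 in XX329 minus TAA10 (−0.25), Blackbird minus 30A (0.046) and TD265 minus Blackbird (−0.12), for SAHH and its second probe set in TTR13 minus Blackbird (−0.52 and −0.51), for the second SAHH probe set in Extracted-tetra minus TQ18 (0.024), and for PEAMT1, SAHH and its second probe set in Extracted-tetra minus natural tetraploids (−0.14, −0.081 and −0.14).

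With the actin covariate the counts were 5513 for Extracted-tetra minus TAA10, 8131 for Allo-960S7 minus TAA10, 18022 for Extracted-tetra minus TQ18, 5240 for TQ18 minus 30A, 5583 for TTR13 minus Blackbird and 4702 for Extracted-tetra minus natural tetraploids. Calls of PEAMT1 ended for Extracted-tetra minus TAA10 (−0.30), Extracted-tetra minus TQ18 (−0.40), Blackbird minus 30A (−0.36) and TD265 minus Blackbird (−0.31), those of SAHH for Extracted-tetra minus TQ18 (1.22) and TQ18 minus 30A (−0.79), and that of COMT1 for Allo-960S7 minus 30A (−0.50). COMT1 gained calls for Extracted-tetra minus natural tetraploids (0.96), TD265 minus Blackbird (0.87) and Allo-960S7 minus Blackbird (−0.78). SAHH and its second probe set gained calls for Allo-960S7 minus Allo-960 mix (−1.01 and −1.16). The SAHH difference of Extracted-tetra minus TQ18 was larger than in the main fit (0.74 ± 0.30, SE). Its SE was also larger, at 0.47 (limma, adjusted p = 0.0501). Signs changed for SAHH and its second probe set in Extracted-tetra minus TAA10 (0.23 each), for the second probe set in Extracted-tetra minus TQ18 (0.24), for PEAMT1, the second SAHH probe set and COMT1 in TQ18 minus 30A (0.079, 0.24 and 0.25), for COMT1 in Blackbird minus 30A (0.27) and for PEAMT1 and COMT1 in TTR13 minus Blackbird (0.065 and 0.31). Median centring turned PEAMT1 in TQ18 minus 30A (0.039) and TTR13 minus Blackbird (0.011), and quantile normalization COMT1 in XX329 minus TAA10 (−0.021) and PEAMT1 in TTR13 minus Blackbird (0.0012), and it ended the COMT1 call of Allo-960S7 minus 30A (−0.59). With median centring, SAHH and its second probe set gained calls for Allo-960S7 minus Allo-960 mix (−0.96 and −1.10) and minus TAA10 (−0.81 and −0.94). Trend and robust eBayes ended the SAHH calls of XX329 minus TAA10 (−1.13) and Extracted-tetra minus TQ18 (0.74).

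A fit limited to the groups compared gave 67 calls for XX329 minus XX329 mix, 1262 for the difference of departures, 539 for XX329 minus TAA10 and 5780 for TQ18 minus 30A, and with the replicate block 33, 960, 377 and 5450. The main fit treated no groups as paired, and the block was an alternative run for every comparison. Only TQ18 and 30A met the rule for pairing. The replicate block ended calls of PEAMT1 for Extracted-tetra minus TAA10 (−0.39) and TTR13 minus TD265 (0.37) and of SAHH for XX329 minus TAA10 (−1.13). The limited fit without the block ended PEAMT1 for TTR13 minus TD265 (0.37) and TD265 minus Blackbird (−0.38) and SAHH for XX329 minus TAA10 (−1.13). Calls gained in both limited fits included SAHH and its second probe set for Allo-960S7 against its mix, TAA10 and Blackbird. They also included COMT1 for Allo-960S7 against its mix and Blackbird and for TTR13 minus TD265. Calculated mixes gave 4373 calls for XX329 minus XX329 mix. Without the line TTR13 or TQ18, SAHH in Aegilops tauschii minus natural tetraploids became 0.019 or 0.51, and without 30A it was −0.67 and called (adjusted p = 0.0238). Without TD265, COMT1 there became 0.023, and PEAMT1, SAHH and its second probe set in Extracted-tetra minus natural tetraploids −0.11, −0.10 and −0.20.

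With 1 array left out at a time, counts ran from 3349 to 5060 for Allo-960S7 minus Allo-960 mix (without Allo-960 mix replicate 2 the lowest), from 548 to 2260 for XX329 minus XX329 mix (without XX329 mix replicate 2 and XX329 replicate 3) and from 974 to 2419 for XX329 minus TAA10 (highest without XX329 replicate 3). Some calls ended, within these ranges over all arrays left out in turn. Those of PEAMT1 ran from −0.45 to −0.33 for Extracted-tetra minus TAA10, −0.53 to −0.22 for TD265 minus Blackbird and 0.21 to 0.52 for TTR13 minus TD265; the calls ended at −0.40 to −0.33, −0.36 to −0.22 and 0.21 to 0.39. Those of SAHH ran from 0.66 to 0.86 for Extracted-tetra minus TQ18 and −1.69 to −0.48 for XX329 minus TAA10, and those of COMT1 from 0.45 to 0.87 for Extracted-tetra minus TQ18 and −0.84 to −0.70 for Allo-960S7 minus TAA10; the calls ended at 0.66 to 0.77, −1.22 to −0.48, 0.45 to 0.55 and −0.76 to −0.70. Uncalled differences crossed 0 for COMT1 in Blackbird minus 30A (−0.26 to 0.090), XX329 minus TAA10 (−0.19 to 0.44), XX329 minus XX329 mix (−0.56 to 0.066) and the difference of departures (−0.0081 to 0.62), for SAHH and its second probe set in the difference of departures (−0.34 to 0.87 and −0.37 to 0.95), TTR13 minus Blackbird (−0.032 to 0.14 and −0.040 to 0.21) and Extracted-tetra minus natural tetraploids (−0.0073 to 0.19 and −0.12 to 0.19), and for PEAMT1 in TQ18 minus 30A (−0.047 to 0.018), TTR13 minus Blackbird (−0.066 to 0.026) and Extracted-tetra minus natural tetraploids (−0.039 to 0.065).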

Other observations

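A pair of probe sets share a cluster number in their array IDs with COMT1 or PEAMT1 but have no gene in the annotation, so they are given by ID alone. They were looked up after the values of the named genes had been seen. Ta.336.2.S1_at was 10.97 ± 0.13 in TQ18 and 10.51 ± 0.54 in 30A against 5.40 ± 0.50 in TTR13, 6.18 ± 0.39 in TD265 and 5.62 ± 0.36 in Blackbird (log2 units; SD, n = 3 each). It was 6.59 ± 0.35 in Extracted-tetra and 9.15 ± 0.15 in TAA10, and Extracted-tetra was lower by 2.56 ± 0.32 (SE; limma, adjusted p = 3.88e-07). The mixes stood at 9.30 ± 0.39 and 8.94 ± 0.54, XX329 at 9.36 ± 0.78 and Allo-960S7 at 8.22 ± 0.23 (SD, n = 3 each), and neither hexaploid was called against its mix. COMT1 itself, read from Ta.336.1.S1_x_at, was not called between Aegilops tauschii and the natural tetraploids or between Extracted-tetra and TAA10.

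Ta.1842.2.S1_at was 10.55 ± 0.04 in TQ18 and 10.61 ± 0.10 in 30A and ran from 10.67 ± 0.03 in Blackbird to 11.09 ± 0.13 in TTR13 among the natural tetraploids (SD, n = 3 each). Aegilops tauschii minus the natural tetraploids was −0.35 ± 0.07 (SE, limma, adjusted p = 6.17e-05), whereas PEAMT1 was higher in Aegilops tauschii. Blackbird minus 30A was 0.06 and not called (adjusted p = 0.712). Unlike PEAMT1, Ta.1842.2.S1_at was not called for Allo-960S7 against its mix (0.02 ± 0.10, SE, limma, adjusted p = 0.962), Blackbird (0.04, adjusted p = 0.915) or 30A (0.09, adjusted p = 0.537). Extracted-tetra minus TAA10 was 0.22 and not called (adjusted p = 0.157), where PEAMT1 was lower. The difference between these probe sets was not tested.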
